A study of Rattus norvegicus with 20 samples.

Results

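Epididymal fat of rats given resveratrol was compared with that of lean control rats, gene by gene. The members are the 5 arrays titled resveratrol and the 5 titled lean control, 10 of the 20 arrays of the series, and the comparison ran over all 14557 genes that had a probe set naming a single gene. The other 10 arrays, 5 of obese rats and 5 of rats given rosiglitazone, entered the fit to estimate the spread, and the obese arrays are also shown beside the results. Each array measured total RNA of 1 tissue sample on an Affymetrix Rat Gene 2.1 ST strip, a one-colour array of short probes, from 100 ng of RNA. Levels are log2 signal. Background was taken as the 95th percentile of the means of olfactory, vomeronasal and taste receptor genes, which fat should hardly express; folds with a mean under it are approximate.

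All animals were male ZDF rats kept in cages of their own under a reversed light cycle, with the strain given as Zucker. The resveratrol rats are labelled only by the compound, and this text treats them as obese animals that received it. The dose, route and duration of resveratrol, the diet of these rats, and the age and genotype of any group were not stated in the sources used. Obese rats ate a stock diet for 6 weeks and lean control rats a standard chow, and no label says that the lean rats received a vehicle. The comparison therefore holds obesity, diet and resveratrol together, and their parts cannot be told apart within it. The titles number the arrays of a group as biological replicates, no batch is labelled, and the p-values measure the spread between these samples.

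Visceral fat such as the epididymal depot stores triglyceride in adipocytes, which also secrete hormones such as leptin and adiponectin. In obesity the adipocytes enlarge, macrophages gather around them and take up lipid, and the lysosomes of those macrophages break it down. Resveratrol, a polyphenol of grapes and other plants, has been studied for its action on the sirtuin deacetylases, the kinase AMPK and mitochondria. ZDF rats are a model of obesity and diabetes.

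The promoter of 1 gene is shown first, because Mt2A had the second highest rise among the genes measured above background and its promoter holds repeats of a known element's core. Mt2A encodes a metallothionein, a small protein that binds zinc and copper, and the factor MTF1 switches such genes on through metal response elements. The 250 bases before its start in RefSeq, on the minus strand of the rat assembly GRCr8 at chr19:10838709-10838958, read as follows, with matches to the core of that element in capitals.
Mt2A: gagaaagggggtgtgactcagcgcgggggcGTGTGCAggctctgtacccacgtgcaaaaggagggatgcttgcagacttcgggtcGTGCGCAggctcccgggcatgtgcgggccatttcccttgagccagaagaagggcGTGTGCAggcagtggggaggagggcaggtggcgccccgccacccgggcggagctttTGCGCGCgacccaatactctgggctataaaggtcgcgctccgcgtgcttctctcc
The core was searched as TGCACNC or TGCGCNC on both strands, where N is any base, and 4 matches began at -220, -165, -111 and -55 relative to the start. At least 1 match was found in 20.6% of 33469 RefSeq promoters of the same length, and at least 4 in 0.266%. A match describes the letters and is not evidence of a working site.

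Mt2A read 7.25, 6.00, 6.27, 6.18 and 6.16 log2 units in resveratrol replicates 1 to 5, against 1.89, 3.85, 5.31, 3.47 and 2.13 in lean control replicates 1 to 5. Every resveratrol array lay above every lean array, and the lean arrays spread far more widely. The difference was 3.04 ± 0.47 (resveratrol minus lean control, SE), an 8.24-fold higher level, with adjusted p = 0.00244 by limma, and 3.54 without lean control replicate 3. Lean control replicates 1 and 5 were under background, so the fold is approximate. Obese rats averaged 6.28 ± 0.22 (SD, n = 5), and their own difference from lean control was 2.95. Mt1, a close paralog, had no probe set of its own here, and cross-hybridization between them was not tested.

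The deposited arrays were first compared as wholes. The SD of log2 signal over all features was 1.81 to 1.93 in resveratrol arrays and 1.73 to 1.91 in lean control arrays, where replicate 3 held the 1.91 and no other lean array passed 1.81. On the first principal component, which carried 34.1% of the variance over all 20 arrays, resveratrol arrays scored -5.09 to 17.0. Lean control replicate 3 scored 11.8, against -49.7 to -23.7 for the other lean arrays. Its Spearman correlation with resveratrol arrays was 0.964 to 0.974, and with the other lean arrays 0.939 to 0.955; resveratrol arrays correlated at 0.964 to 0.971 among themselves. Replicate 3 therefore stands apart from its label. Values below use all 5 lean arrays unless they are given as without it. Leaving it out was decided with earlier results of these data known, so the larger counts without it are a second view and not independent evidence.

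**Figure D1:**
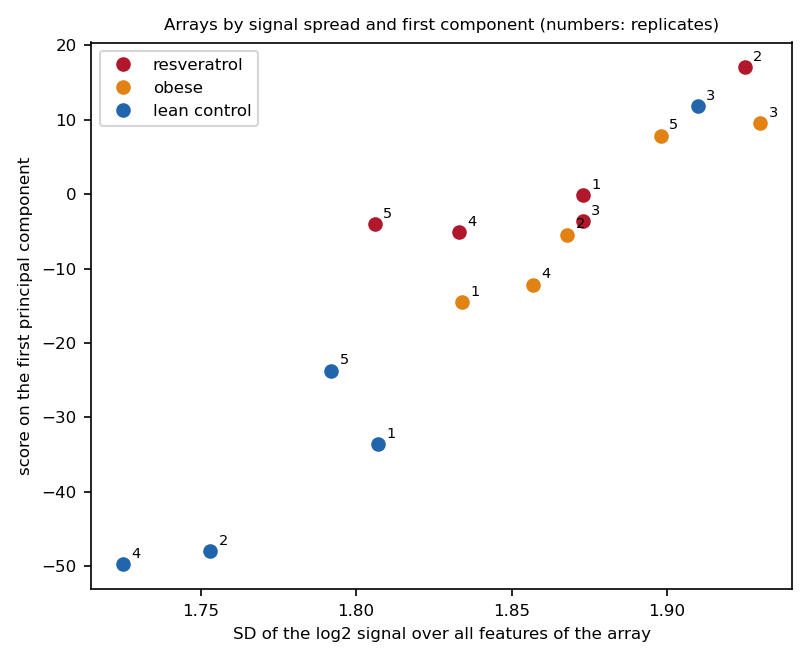
Each point is an array, with the SD of its log2 signal over all features on the horizontal axis and its score on the first principal component of all 20 arrays on the vertical axis, for the resveratrol, obese and lean control groups (numbers are replicates). Resveratrol arrays score -5.09 to 17.0, and lean control replicate 3 lies at 11.8 while the other lean arrays lie at or below -23.7.

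Of 14557 genes, 383 (2.63%) passed an adjusted p of 0.05 between resveratrol and lean control. The 304 higher genes (2.09%) outnumbered the 79 lower ones (0.543%), and 141 (0.969%) differed at least 2-fold, 119 of them higher (0.817%) and 22 lower (0.151%). Without lean control replicate 3 the count was 2073 (14.2%), with 1628 higher (11.2%) and 445 lower (3.06%), and all 383 genes remained called in the same direction. Of the 7013 genes measured above background, 4.65% were called with all arrays (286 higher and 40 lower) and 23.8% without replicate 3 (1568 higher and 103 lower). Many of the lower calls therefore had means at or under background. Quantile normalization of the arrays gave 240 higher and 133 lower genes, so that 64.3% of calls were higher in place of 79.4%. Leaving out any 1 other array gave between 102 genes (without lean control replicate 4) and 259 genes (without resveratrol replicate 1). Of the 72 called genes named here, 36 missed the threshold without lean control replicate 4 and 38 with only the 10 arrays in the fit, and none missed it without lean control replicate 3. The groups did not overlap in 294 genes (2.02%), of which 104 were also called (0.714% of all genes); without replicate 3 these counts were 1794 (12.3%) and 1381 (9.49%). In 303 of the 383 called genes, lean control replicate 3 lay nearer the resveratrol mean than the mean of the other lean arrays, whereas the same held of each other lean array in 4 to 25 genes.

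**Figure D2:**
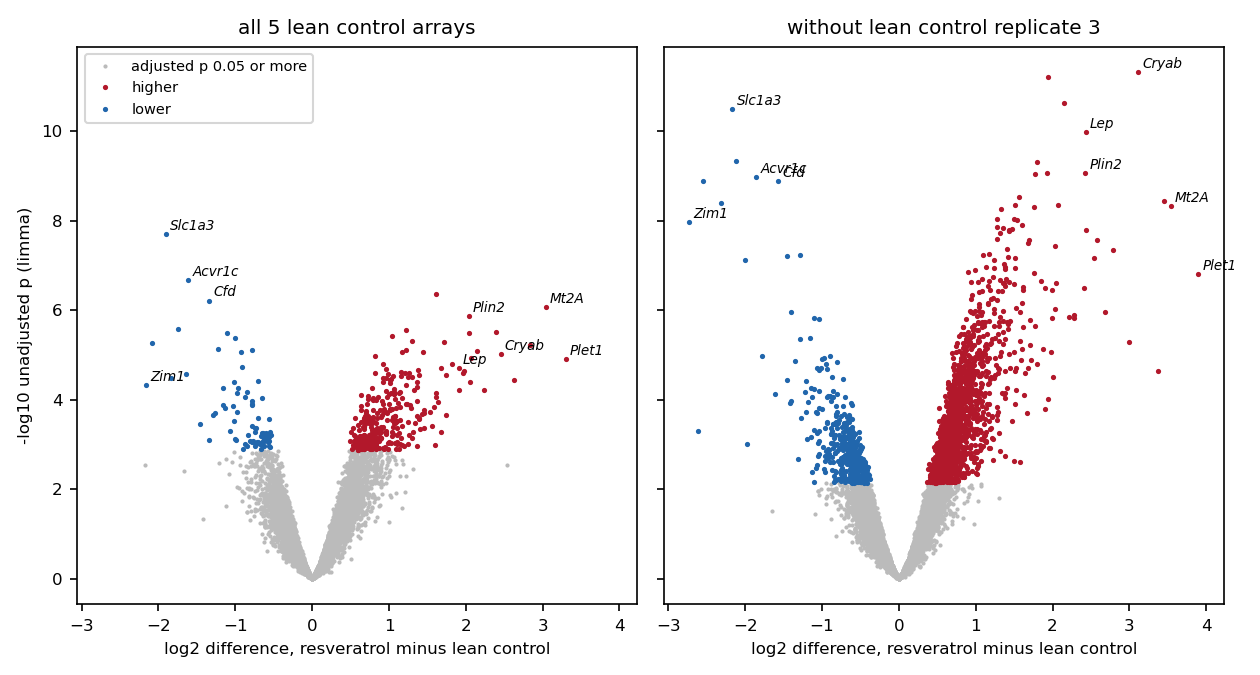
Each point is 1 of 14557 genes, with the log2 difference of resveratrol minus lean control on the horizontal axis and the -log10 of limma's unadjusted p on the vertical axis, with all 5 lean arrays on the left and without lean control replicate 3 on the right. Red points passed as higher (304 on the left, 1628 on the right) and blue points as lower (79 and 445).

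Because the spread of the signal also differed between the groups, the fit was repeated with the signal SD of each array as a covariate, and 11 genes then passed, 6 higher and 5 lower. The higher ones were Mt2A, Plin2, Dmrt2, Prnp, Rap2b and Fcgr2a, and the lower ones Slc1a3, Acvr1c, Cfd, Telo2 and Zfp868. All of these but Fcgr2a also passed in every other fit that tested them. The fit restricted to genes above background did not include Rap2b. Prnp (the cellular prion protein), Fcgr2a (an Fc receptor of myeloid cells), Telo2 and Zfp868 are named for this reason after their values were seen. The part of signal spread in the remaining calls was not tested beyond this fit.

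**Figure D3:**
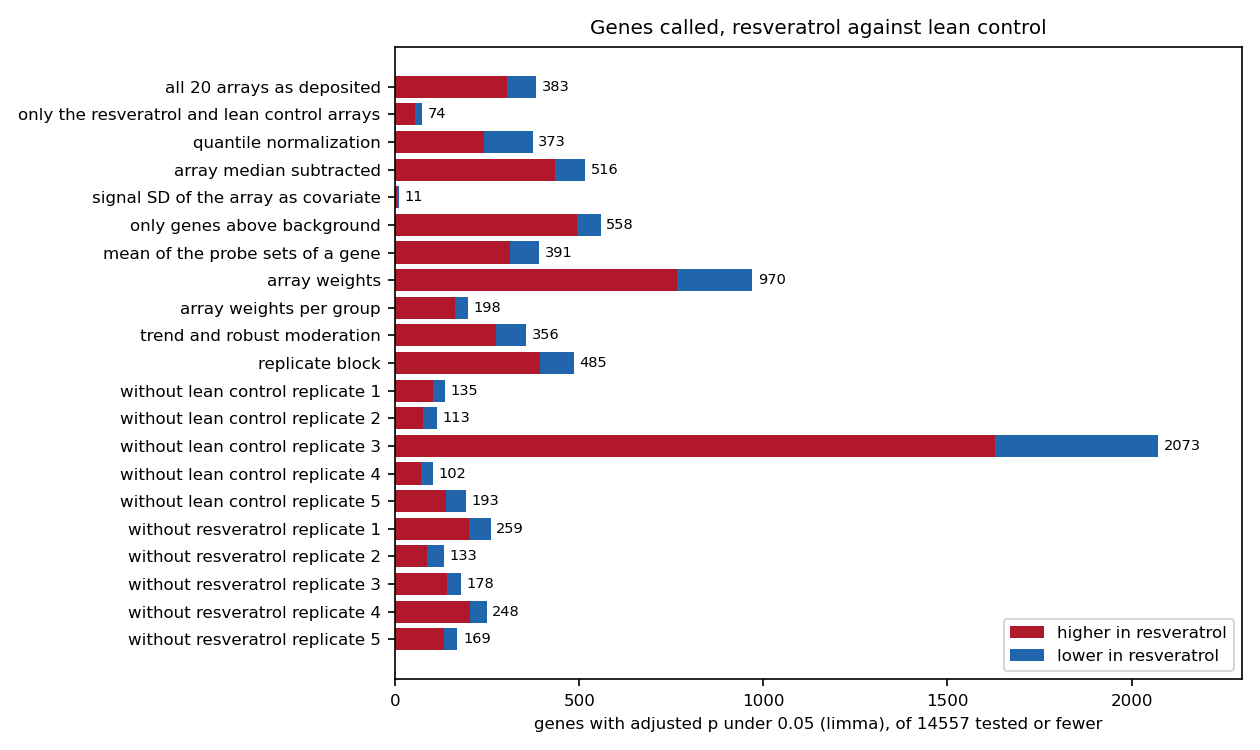
Bars give the number of genes past adjusted p 0.05 between resveratrol and lean control under each setting, split into higher (red) and lower (blue) in resveratrol. The count is 383 with the arrays as deposited, 11 with the signal SD as a covariate and 2073 without lean control replicate 3.

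Among the hormones of fat, leptin rose, adipsin fell, and adiponectin and resistin did not pass. Lep, which encodes leptin, the hormone that reports fat stores to the brain, read 10.14, 10.38, 10.40, 10.11 and 9.46 in resveratrol arrays, against 8.10, 7.24, 10.27, 7.31 and 8.02 in lean control arrays. Only lean control replicate 3 reached the resveratrol range. Lep was 3.76-fold higher (difference 1.91 ± 0.36, adjusted p = 0.00872), and 5.39-fold higher without replicate 3 (adjusted p = 3e-07).

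Cfd encodes adipsin, a serine protease of the alternative complement pathway that adipocytes secrete. It read 7.80, 7.83, 7.94, 7.42 and 7.58 in resveratrol arrays, against 9.08, 9.53, 8.15, 9.24 and 9.30 in lean control arrays, with no overlap. The fall was 2.54-fold (difference -1.35 ± 0.20, adjusted p = 0.0022), and the difference was -1.57 without lean control replicate 3. Adipoq, the adiponectin gene, averaged 11.03 ± 0.03 in resveratrol arrays and 10.96 ± 0.13 in lean control arrays (SD, n = 5 each). Its difference of 0.06 had a 95% confidence interval of -0.17 to 0.29, near the upper end of the array's scale. Retn, encoding resistin, differed by 0.34 (-0.30 to 0.98, adjusted p = 0.579) and ranged from 6.01 to 8.04 within the resveratrol arrays alone. Of the 18 measured hormones and secreted factors of adipocytes, Lep was the 1 higher and Cfd the 1 lower, with a median difference of 0.15, against 0.00 over all genes tested and 0.17 over the 7013 genes measured above background. The list's median was -0.02 with the signal SD as a covariate, and 2 genes were higher and 1 lower without lean control replicate 3.

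**Figure D4:**
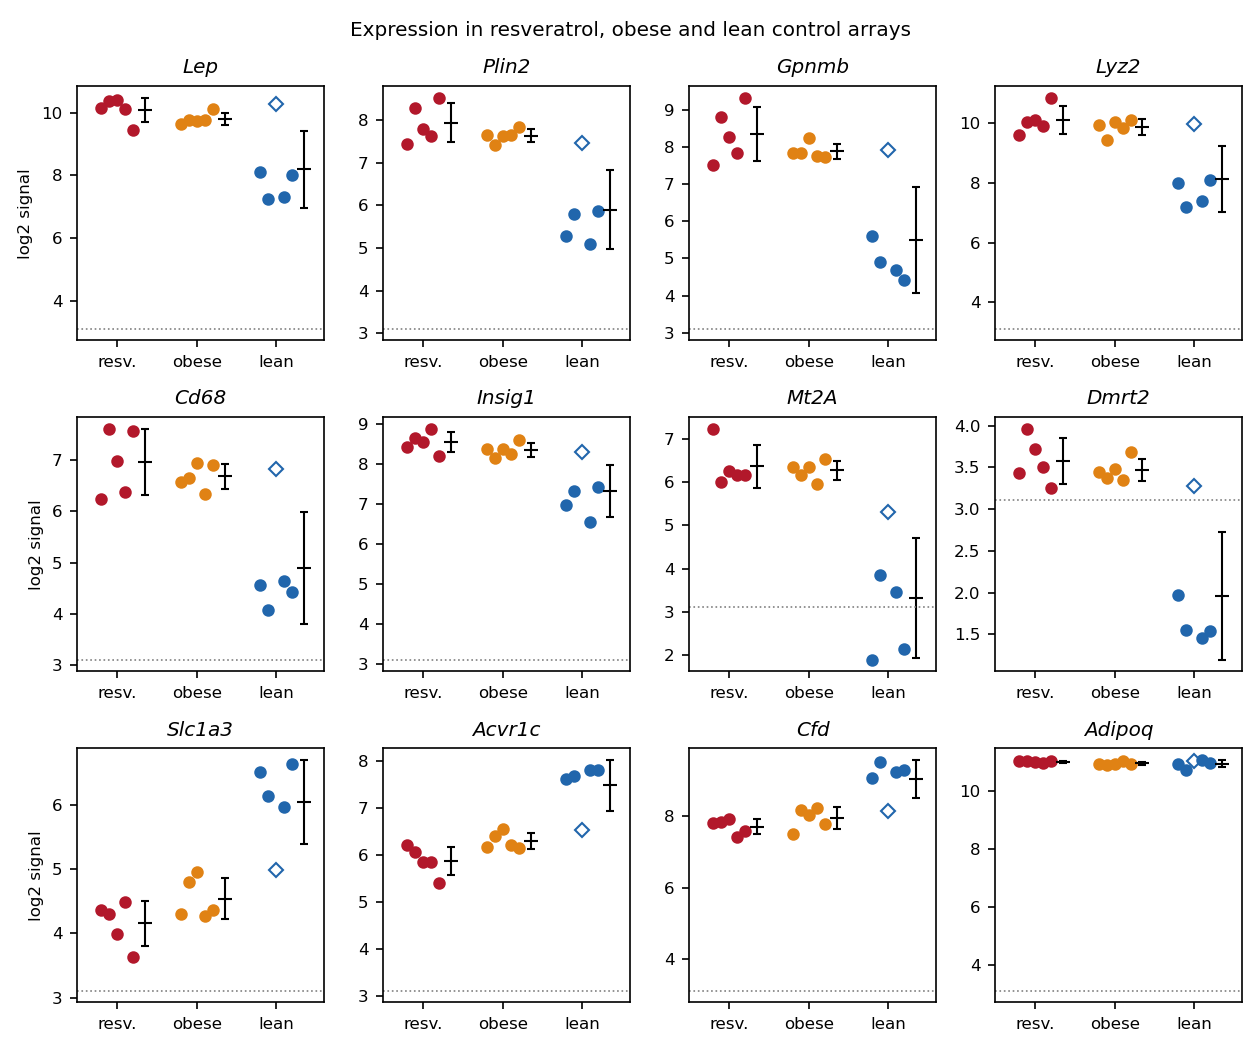
Log2 signal of 12 genes in each resveratrol, obese and lean control array, with black marks for the mean and SD of each group (n = 5), an open diamond for lean control replicate 3 and a dotted line for background. Mt2A, Slc1a3, Acvr1c and Cfd do not overlap between resveratrol and lean control arrays, while in Lep and Cd68 only the open diamond falls into the resveratrol range.

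The coats of lipid droplets differed by member. Plin2, which coats droplets in many cell types including lipid-laden macrophages, read 7.45, 8.29, 7.80, 7.62 and 8.53 in resveratrol arrays, against 5.29, 5.80, 7.46, 5.10 and 5.86 in lean control arrays. Its level was 4.1-fold higher (difference 2.04 ± 0.32, adjusted p = 0.00328), and lean control replicate 3 only just touched the resveratrol range; without it the difference was 2.42. Cidea, a droplet protein that promotes the fusion of droplets, was 2.65-fold higher (1.41 ± 0.35, adjusted p = 0.0331), although lean control replicate 3, at 9.56, exceeded every resveratrol array, and the difference was 1.93 without it. Cidec, its relative in white adipocytes, differed by 0.45 (adjusted p = 0.147), and passed without replicate 3 (0.60, adjusted p = 0.01) and with array weights. In the list of droplet coats and lipases, 2 of 10 measured genes were higher and none lower (3 higher without replicate 3), with a median of 0.09 that was -0.09 after quantile normalization and -0.10 with the signal SD as a covariate.

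Genes of lipid-laden macrophages and lysosomes had the most calls of the 43 lists: 12 of 20 measured members were higher and none lower, with a median difference of 0.82. The share of 60.0% called stood beside 2.63% of all genes and 4.65% of those above background. Without lean control replicate 3, 16 of 20 (80.0%) were higher, beside 14.2% of all genes and 23.8% of those above background, and the median was 1.08. With only the 10 compared arrays 5 members passed, and with the signal SD as a covariate 1 passed and the median was 0.50. Leaving out lean control replicate 1, 2 or 4 gave 7, 6 and 5 members, and resveratrol replicate 2 or 5 gave 7 each. Gpnmb, a membrane glycoprotein of macrophages under lysosomal load, read 7.51, 8.80, 8.26, 7.82 and 9.32 in resveratrol arrays, against 5.59, 4.90, 7.92, 4.68 and 4.42 in lean control arrays. The level was 7.17-fold higher (2.84 ± 0.50, adjusted p = 0.0051), and lean control replicate 3 again sat inside the resveratrol range while the other lean arrays sat well below it. Without replicate 3 the difference was 3.45.

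Lipa encodes lysosomal acid lipase, which frees cholesterol and fatty acids from ingested lipid. It read 7.15, 8.13, 7.95, 7.37 and 8.89 in resveratrol arrays, against 5.59, 5.04, 7.44, 5.24 and 5.43 in lean control arrays, a 4.44-fold rise (2.15 ± 0.38, adjusted p = 0.00527). Lyz2, the lysozyme gene of myeloid cells, was 3.92-fold higher (1.97 ± 0.38, adjusted p = 0.0089). Lgals3, which encodes galectin-3, a lectin abundant in macrophages, was 3.33-fold higher (1.74 ± 0.34, adjusted p = 0.00893). Olr1, a scavenger receptor for oxidized lipoproteins, read 4.66, 4.62, 5.20, 4.81 and 5.88 in resveratrol arrays, against 2.14, 2.40, 4.2, 2.24 and 2.24 in lean control arrays. These groups did not overlap, and the difference was 2.39 ± 0.40 (adjusted p = 0.00419) from a lean mean near background. It was the 1 higher gene among 11 measured genes of fatty acid and lipoprotein uptake, where 3 were higher without lean control replicate 3. Without that array Lipa differed by 2.57, Lyz2 by 2.43, Lgals3 by 2.04 and Olr1 by 2.78.

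Macrophage markers moved with these genes. Their list of 20 averaged 5.31 to 5.74 log2 units over resveratrol arrays, against 4.56 to 4.89 over 4 lean control arrays and 5.56 in lean control replicate 3. Cd68, a lysosomal membrane protein of macrophages, read 6.25, 7.61, 6.98, 6.37 and 7.57 in resveratrol arrays and 4.56, 4.07, 6.82, 4.64 and 4.43 in lean control arrays (2.05 ± 0.41, adjusted p = 0.00975). Msr1, another scavenger receptor, rose by 1.53 (adjusted p = 0.0214), Itgax, the CD11c integrin, by 1.11 (adjusted p = 0.0419), and Ptprc, the pan-leukocyte CD45, by 0.92 (adjusted p = 0.0313). These were the 4 higher of 20 markers with all arrays; without replicate 3 there were 13, among them Fcer1g, Csf1r, Itgam and C1qb. The shares were 20.0% with all arrays and 65.0% without replicate 3, and Cd68 differed by 2.53 without it. With the signal SD as a covariate none of the 20 passed, and the median of 0.71 was 0.30. In whole tissue, more cells of a type and more RNA per cell cannot be told apart.

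Other immune cells gave little signal. Of 19 measured T and NK cell genes only Cd4 was higher (1.63 ± 0.36, adjusted p = 0.0166), and in the rat macrophages also carry CD4. The list averaged 2.19 to 2.36 in resveratrol arrays and 2.23 to 2.35 in lean control arrays, under background, and the T cell receptor component Cd3e, named after its values were seen, averaged 1.24 in resveratrol arrays and 1.46 in lean control arrays. None of 8 B and plasma cell genes and none of 16 mast cell and neutrophil genes passed, beside 2.63% of all genes, and 1 of each was lower without lean control replicate 3. None of the B and plasma cell genes and 3 of the mast cell and neutrophil genes were above background, so the lists carry little information. Class II antigen presentation genes had a median of 0.31 with none of 13 called, and 3 higher without lean control replicate 3.

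Genes of chemokines and their receptors passed in both directions. The share called was 12.9%, beside 2.63% of all genes and 4.65% of those above background. Without lean control replicate 3 it was 22.6%, beside 14.2% and 23.8%. The ligand Ccl9, a chemoattractant for myeloid cells in rodents, read 3.52, 6.17, 5.65, 4.25 and 6.56 in resveratrol arrays, against 2.10, 2.45, 4.06, 2.45 and 1.94 in lean control arrays (2.63 ± 0.52, adjusted p = 0.0095). The resveratrol arrays themselves spanned a wide range, and the lean mean was near background. The receptors Ccr2, which draws monocytes into tissue, and Ccr1 rose by 1.60 (adjusted p = 0.0446) and 1.36 (adjusted p = 0.0238). Cxcl13, a ligand that attracts B cells, was lower at 4.07, 4.03, 3.51, 3.18 and 3.87 in resveratrol arrays, against 5.11, 5.45, 4.51, 5.47 and 4.59 in lean control arrays (-1.29 ± 0.30, adjusted p = 0.0235). These were the 3 higher and 1 lower of 31 measured (5 higher and 2 lower without lean control replicate 3), and the median of the list was -0.16, or 0.18 over its members above background. C3ar1, the receptor for the complement fragment C3a on myeloid cells, rose by 1.25 (adjusted p = 0.0437). None of 27 inflammatory cytokine and acute phase genes and none of 14 interferon-response genes passed, of which 11 and 8 were above background. At 2.63% of all genes called, lists of this size can hold no call without differing from the rest. Without lean control replicate 3, 2 cytokine genes and no interferon-response gene were higher.

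Several further genes were among the 10 highest. Plet1, an epithelial surface protein, read 3.92, 6.15, 6.09, 5.12 and 7.38 in resveratrol arrays, against 1.46, 1.69, 4.84, 2.01 and 2.17 in lean control arrays (3.30 ± 0.61, adjusted p = 0.00632). Most lean arrays were at background, so the 9.84-fold difference is approximate, and Plet1 was the 1 called gene of 11 mesothelial markers, whose median was -0.33. Cryab, a small heat shock protein, was 5.48-fold higher (2.45 ± 0.44, adjusted p = 0.00557) with lean control replicate 3 at 7.26, inside the resveratrol range of 6.45 to 7.42, and the other lean arrays at 4.18 or less. Dnase1l3, a secreted DNase of myeloid cells, rose by 2.23 (adjusted p = 0.0124), and Cd300lb, an activating myeloid receptor, by 2.07 (adjusted p = 0.00632). Dmrt2, a transcription factor, had the smallest adjusted p among the higher genes (0.00209), at 3.43, 3.96, 3.72, 3.50 and 3.25 in resveratrol arrays against 1.97, 1.55, 3.27, 1.45 and 1.54 in lean control arrays. Rap2b, a small GTPase, was 1.22 higher (adjusted p = 0.00419), and for it lean control replicate 3, at 1.69, did not stand apart. The mean of Rap2b over the 20 arrays was not above background. For Dmrt2 all lean arrays but replicate 3 were under background, so both differences are approximate. Without lean control replicate 3 Plet1 differed by 3.90, Cryab by 3.12, Dmrt2 by 1.95 and Rap2b by 1.17.

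Among genes of sterol synthesis and uptake 6 of 16 were higher and none lower (37.5% called, beside 2.63% of all genes and 4.65% of those above background), with a median of 0.66. With only the 10 compared arrays 1 passed. With the signal SD as a covariate none passed, and the median was 0.45. Leaving out lean control replicate 1, 2 or 4 gave 2, 3 and 2 members, and resveratrol replicate 2, 3 or 5 gave 3, 4 and 4. Insig1, which holds the sterol sensor SCAP in the endoplasmic reticulum and is itself induced by the factor SREBP, read 8.42, 8.66, 8.55, 8.88 and 8.20 in resveratrol arrays. In lean control arrays it read 6.98, 7.33, 8.31, 6.55 and 7.42, so that only replicate 3 overlapped (1.22 ± 0.22, adjusted p = 0.00527). The late enzymes Dhcr7, Sc5d and Nsdhl rose by 1.14 (adjusted p = 0.0188), 1.11 (adjusted p = 0.0171) and 1.07 (adjusted p = 0.0269), and the other two called genes were the enzymes Idi1 and Msmo1. Without lean control replicate 3, 11 of 16 (68.8%) were higher, beside 23.8% of genes above background, with Fdps, the farnesyl diphosphate synthase, at 1.53 (adjusted p = 0.00103).

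Promoter letters differed among these sterol genes. The sterol response element core, searched as CACNCCA on both strands, occurred once or more in 14.4% of promoters. In the 250 bases before their starts, Insig1 had 1 match and Dhcr7, Nsdhl and Sc5d had 0.

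Fatty acid synthesis gave 2 higher of 14 genes (14.3%, beside 4.65% of genes above background) and a median of 0.41. Without lean control replicate 3, 5 were higher (35.7%, beside 23.8%). None passed with only the resveratrol and lean control arrays in the fit, or with the signal SD as a covariate. The median was 0.15 with that covariate and 0.18 after quantile normalization. None passed either without lean control replicate 2, 4 or 5, or without resveratrol replicate 2, 3, 4 or 5. Leaving out replicate 1 kept 2 genes for lean control and 1 for resveratrol. Elovl6, the elongase that makes C18 from C16 fatty acids, read 5.47, 5.85, 5.84, 5.93 and 6.05 in resveratrol arrays, against 4.04, 3.20, 5.96, 3.91 and 4.2 in lean control arrays (1.56 ± 0.38, adjusted p = 0.03). Me1, the malic enzyme that supplies NADPH, was 2.75-fold higher (1.46 ± 0.36, adjusted p = 0.0318). Scd, the stearoyl-CoA desaturase, differed by 0.87 with adjusted p = 0.0569, and passed without replicate 3 (1.14, adjusted p = 0.000807). None of 9 triglyceride synthesis genes passed, beside 2.63% of all genes and 4.65% of those above background. Without lean control replicate 3, 3 (33.3%) were higher, beside 14.2% of all genes and 23.8% of those above background.

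Genes of fuel oxidation showed small differences that depended on lean control replicate 3. In fatty acid oxidation 2 of 22 genes were higher, Hadhb, a subunit of the mitochondrial trifunctional protein (1.01 ± 0.23, adjusted p = 0.0198), and the thiolase Acaa2 (0.74 ± 0.18, adjusted p = 0.0273). Without replicate 3 the count was 12 of 22 (54.5%), beside 14.2% of all genes and 23.8% of those above background, with Cpt1b and Cpt1a, which admit fatty acids to mitochondria, at 0.97 and 0.87. The tricarboxylic acid cycle and pyruvate list had 3 of 18 higher: Pdk4, which blocks pyruvate oxidation (1.37, adjusted p = 0.0452), Dld, a subunit of the pyruvate and oxoglutarate dehydrogenases (0.92, adjusted p = 0.00783), and Idh3a, a subunit of isocitrate dehydrogenase (0.90, adjusted p = 0.0313). Without replicate 3, 10 of 18 were higher (55.6%, beside 23.8% of genes above background). With all arrays the share called was 16.7% in this list and 9.09% in fatty acid oxidation, beside 4.65% of genes above background. None of 38 respiratory chain genes passed with all arrays, beside the same 4.65%. Without replicate 3, 21 were higher and 1 lower (57.9%, beside 23.8%). Their median difference of 0.34 was 0.13 after quantile normalization and 0.06 with the signal SD as a covariate, against 0.17 over genes above background in the deposited values.

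Fibroblast markers had a median of 0.72, close to that of macrophage markers at 0.71, and 0.33 with the signal SD as a covariate. Their list averaged 6.06 to 6.42 in resveratrol arrays, against 5.14 to 5.49 in 4 lean control arrays and 6.32 in lean control replicate 3. Sfrp1, a secreted Wnt antagonist, read 5.88, 6.31, 5.51, 6.07 and 6.55 in resveratrol arrays, against 4.03, 4.25, 6.13, 4.13 and 3.74 in lean control arrays (1.61 ± 0.34, adjusted p = 0.013). With Dcn, the matrix proteoglycan decorin (0.83, adjusted p = 0.0487), it made the 2 higher of 19 markers (10.5%, beside 4.65% of genes above background). Without replicate 3, 13 were higher (68.4%, beside 23.8%), and Sfrp1 differed by 2.03 and Dcn by 1.07. With only the 10 compared arrays 0 markers passed, and likewise with the signal SD as a covariate. Matrix genes gave 4 higher of 33, and these were Thbs2, a matricellular protein (1.39, adjusted p = 0.0245), the collagen crosslinking enzymes Lox (1.34, adjusted p = 0.0273) and Loxl1 (1.24, adjusted p = 0.0092), and the protease Adamts5 (0.96, adjusted p = 0.0373). The share called was 12.1%, beside 4.65% of genes above background. Without lean control replicate 3, 8 were higher and 1 lower (27.3%, beside 23.8%), and Thbs2 differed by 1.70 and Lox by 1.75. The matrix median of 0.215 was 0.047 after quantile normalization and -0.025 with the signal SD as a covariate. With that covariate 0 matrix genes passed, and likewise with only the 10 compared arrays. The fibrillar collagens Col1a1 and Col3a1, named after their values were seen, differed by -0.36 (95% confidence interval -0.88 to 0.17) and -0.17 (-0.62 to 0.28).

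Adipocyte, endothelial and smooth muscle markers had medians of 0.11, 0.18 and 0.02. The adipocyte list averaged 8.88 to 9.41 in resveratrol arrays and 8.73 to 9.43 in lean control arrays, with Lep and Cfd as its called genes among 16; without lean control replicate 3, 4 were higher and 1 lower (31.2%). None of 17 endothelial genes and none of 10 smooth muscle and pericyte genes passed. Without replicate 3, 2 endothelial genes were higher (11.8%, beside 14.2% of all genes and 23.8% of those above background) and no smooth muscle gene passed. The endothelial and smooth muscle medians were below 0 after quantile normalization and with the signal SD as a covariate. The list for epididymal epithelium and sperm averaged 1.44 to 1.59 in resveratrol arrays and 1.54 to 1.87 in lean control arrays, all under background, so the tissue labelled epididymal carries the genes of fat and not those of the duct.

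**Figure D5:**
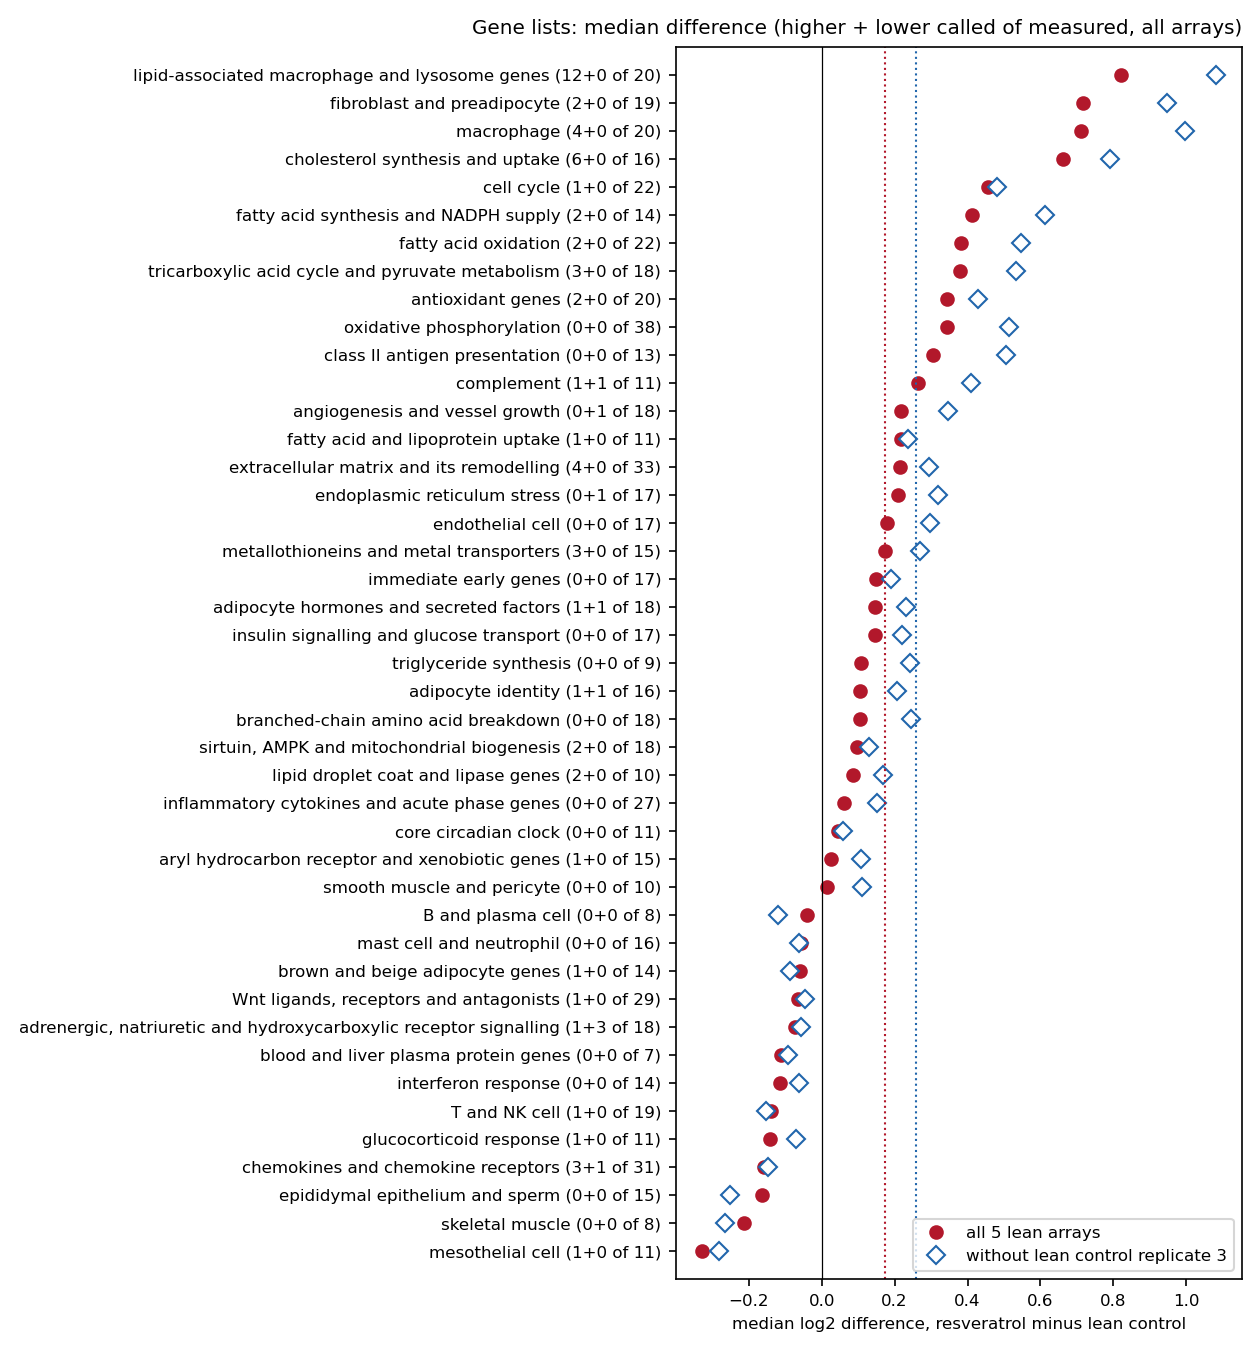
Median log2 difference of resveratrol minus lean control for 43 gene lists, with all lean arrays (filled circles) and without lean control replicate 3 (open diamonds); the labels give the higher plus lower called genes of those measured, and the dotted lines the median of the 7013 genes above background. The lipid-associated macrophage and lysosome list has a median of 0.82, and the fibroblast, macrophage and cholesterol lists follow at 0.72, 0.71 and 0.66.

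Of the lower genes, the glutamate and aspartate transporter Slc1a3 had the smallest adjusted p of all genes tested. It read 4.37, 4.3, 3.99, 4.49 and 3.63 in resveratrol arrays, against 6.52, 6.15, 4.99, 5.98 and 6.65 in lean control arrays. No array overlapped, and the level was 3.73-fold lower (-1.90 ± 0.24, adjusted p = 0.000287). Without lean control replicate 3 the difference was -2.17.

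Acvr1c encodes ALK7, an activin receptor that restrains lipolysis in adipocytes. It read 6.21, 6.06, 5.86, 5.86 and 5.41 in resveratrol arrays, against 7.62, 7.68, 6.53, 7.81 and 7.83 in lean control arrays, without overlap and 3.06-fold lower (-1.61 ± 0.23, adjusted p = 0.00152). Frzb, a secreted Wnt antagonist, read 4.08, 4.04, 3.36, 4.31 and 3.88 in resveratrol arrays, against 5.77, 5.76, 4.2, 6.01 and 6.67 in lean control arrays (-1.75 ± 0.29, adjusted p = 0.00419). Only lean control replicate 3 reached the resveratrol range, and without it Acvr1c differed by -1.86 and Frzb by -2.12. The secreted Wnt antagonists Sfrp1 and Frzb went in opposite directions.

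Both hydroxycarboxylic acid receptors named here fell, and a natriuretic peptide receptor rose. Hcar2, the receptor for niacin and hydroxybutyrate, read 3.69, 4.3, 3.69, 3.06 and 4.03 in resveratrol arrays, against 4.74, 4.53, 4.27, 5.48 and 6.09 in lean control arrays (-1.27 ± 0.29, adjusted p = 0.0216). Hcar1, the lactate receptor, fell by 1.17 on the log2 scale (adjusted p = 0.0119), and Vipr2, which binds vasoactive intestinal peptide, by 1.11 (adjusted p = 0.00419) to a mean near background. Hcar1 and Hcar2 inhibit lipolysis in adipocytes. Adora1, the adenosine receptor that also inhibits it, differed in the other direction, by 0.59 (adjusted p = 0.173) and by 0.86 without lean control replicate 3 (adjusted p = 0.00525). Npr3, the receptor that clears natriuretic peptides, was 2.44-fold higher (1.29 ± 0.29, adjusted p = 0.0193). These were the 1 higher and 3 lower of 18 measured genes of adrenergic, natriuretic and hydroxycarboxylic receptor signalling, where 4 were higher and 4 lower without replicate 3.

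Other genes among the 10 lowest had varied roles. Zim1, an imprinted zinc finger gene, read 2.73, 2.77, 3.40, 2.99 and 3.59 in resveratrol arrays, against 5.45, 5.56, 3.0, 6.01 and 6.26 in lean control arrays (-2.16 ± 0.44, adjusted p = 0.0109). Cbr1, a carbonyl reductase, was 4.25-fold lower (-2.09 ± 0.36, adjusted p = 0.00482), and Trhde, the enzyme that degrades thyrotropin-releasing hormone, 3.58-fold lower (-1.84 ± 0.36, adjusted p = 0.00925). In all of these, lean control replicate 3 lay within the resveratrol range, and without it Zim1 differed by -2.73, Cbr1 by -2.55 and Trhde by -2.32. Gprin3 fell by 1.64 (adjusted p = 0.00893) and the amino acid transporter Slc36a2 by 1.46 (adjusted p = 0.0281), both to means near background. Angpt4, a ligand of the Tie2 receptor of vessels, fell by 1.07 (adjusted p = 0.0351), as the 1 called gene of 18 in vessel growth, where 5 others were higher without lean control replicate 3. Xbp1, a transcription factor of the unfolded protein response, fell by 0.78 (adjusted p = 0.0174), as the 1 called of 17 in endoplasmic reticulum stress, where 3 others were higher without that array.

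The lists tied to the studied actions of resveratrol were called at 11.1% and 6.67%, beside 4.65% of genes above background, and at 22.2% and 20.0% without lean control replicate 3, beside 23.8%. In the first, the list of sirtuins, AMPK and mitochondrial biogenesis, 2 of 18 were higher (4 without replicate 3), the AMPK catalytic subunit Prkaa2 (1.05 ± 0.25, adjusted p = 0.0245) and the mitochondrial transcription factor Tfb2m (0.75, adjusted p = 0.0415), with a median of 0.10 that was -0.03 after quantile normalization and with the signal SD as a covariate. Sirt1 had no probe set paired with it alone. Ppargc1a, the coactivator of mitochondrial biogenesis, averaged 1.89 ± 0.15 in resveratrol arrays and 2.07 ± 0.25 in lean control arrays (SD, n = 5 each), and the uncoupling protein gene Ucp1 1.38 ± 0.13 in resveratrol arrays and 1.43 ± 0.23 in lean control arrays. Both genes were under background. Cyp1b1, a target of the aryl hydrocarbon receptor, differed by -0.01 (95% confidence interval -0.44 to 0.41). Its mean over the 20 arrays was not above background either, so this small difference carries little information. Cyp4b1, a fatty acid hydroxylase, was the 1 higher of the 15 xenobiotic genes of the second list (1.36 ± 0.27, adjusted p = 0.00975), against 3 without replicate 3.

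Antioxidant and metal genes passed in the higher direction only, as did most called genes above background (286 higher and 40 lower). Hmox1, the inducible haem oxygenase, rose by 0.94 (adjusted p = 0.0487). Sod2, the mitochondrial superoxide dismutase, rose by 0.74 (adjusted p = 0.0378). They were 2 of 20 antioxidant genes, beside 4.65% of genes above background. Without lean control replicate 3, 10 of 20 were higher, beside 23.8%. No antioxidant gene passed with only the resveratrol and lean control arrays, with array weights per group or with the signal SD as a covariate. The median of 0.34 was 0.11 with that covariate. None passed either without replicate 1, 2 or 4 of lean control or of resveratrol. Without lean control replicate 5 or resveratrol replicate 3 or 5, 1 passed. Besides Mt2A, Cp, the copper oxidase ceruloplasmin, rose by 0.75 (adjusted p = 0.0251) and Ftl1, the ferritin light chain, by 0.70 (adjusted p = 0.0426). These were 3 of 15 metal genes, and 6 of 15 were higher without replicate 3, beside the same 4.65% and 23.8%. Of the metal genes, Mt2A alone passed with only the resveratrol and lean control arrays, and likewise with the signal SD as a covariate. The median of 0.17 was -0.02 with that covariate. Slc2a4, the insulin-responsive glucose transporter, differed by 0.07 (95% confidence interval -0.37 to 0.52), and none of 17 insulin signalling genes passed, beside 2.63% of all genes. Irs1, an insulin receptor substrate, differed by -1.02 with adjusted p = 0.0522, and passed without replicate 3 (-1.15, adjusted p = 0.0105). Rrm2, a subunit of the enzyme that makes deoxynucleotides, was the 1 higher of 22 cell cycle genes, against 6 without replicate 3 (1.83 ± 0.34, adjusted p = 0.00783).

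Some large differences missed the threshold with all arrays and passed without lean control replicate 3. They also passed with only genes above background tested, and Cyp2b1 and Pla2g2a with array weights. Cyp2b1, a cytochrome P450, read 6.84, 4.91, 4.0, 6.13 and 5.04 in resveratrol arrays, against 2.69, 1.72, 6.18, 2.49 and 1.16 in lean control arrays. Its difference was 2.54 with all arrays (adjusted p = 0.0685) and 3.37 without replicate 3 (adjusted p = 0.0011). Pla2g2a, a secreted phospholipase, ranged from 4.74 to 8.83 in resveratrol arrays and from 6.83 to 9.81 in lean control arrays, and differed by -2.17 (adjusted p = 0.0702) and by -2.62 without replicate 3 (adjusted p = 0.00856). Alb, the plasma protein albumin, differed by -1.66 (adjusted p = 0.0785) and by -1.97 without replicate 3 (adjusted p = 0.0133).

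In Lep, Gpnmb, Slc1a3 and Cfd, obese rats without resveratrol had means between those of resveratrol and lean control arrays, nearer to resveratrol. The comparison of obese rats with lean control uses the same lean arrays, so the values are set side by side only. It called 105 genes (0.721%), 85 higher (0.584%) and 20 lower (0.137%). Lep averaged 10.10 ± 0.38 in resveratrol arrays, 9.80 ± 0.18 in obese arrays and 8.19 ± 1.23 in lean control arrays (SD, n = 5 each). For Gpnmb the means were 8.34 ± 0.73 in resveratrol, 7.87 ± 0.20 in obese and 5.50 ± 1.42 in lean control arrays. Slc1a3 had 4.16 ± 0.35 in resveratrol, 4.54 ± 0.32 in obese and 6.06 ± 0.66 in lean control arrays, and Cfd 7.71 ± 0.21 in resveratrol, 7.95 ± 0.30 in obese and 9.06 ± 0.53 in lean control arrays. For the lysosomal list the median difference from lean control was 0.82 with resveratrol and 0.65 in obese rats. The obese comparison called fewer higher members of that list (5, against 12 with resveratrol). The same held of the sterol list (2 against 6) and the macrophage markers (1 against 4). Over all genes the higher calls were also fewer (85, against 304 with resveratrol), so these counts are not particular to the lists. The sterol list had a median difference of 0.66 with resveratrol and 0.56 in obese rats. For the macrophage markers the medians were 0.71 and 0.48.

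Between resveratrol and obese arrays limma called 0 genes, and 410 genes (2.82%) had an unadjusted p under 0.05. The difference of Lep was 0.30 (95% confidence interval -0.45 to 1.05), of Gpnmb 0.47 (-0.56 to 1.49), of Slc1a3 -0.39 (-0.87 to 0.10) and of Insig1 0.19 (-0.26 to 0.64), so the data leave room for differences in either direction. Among genes called against lean control, the largest differences of resveratrol minus obese were those of Zim1 (-1.25, -2.15 to -0.34), Lilrb4, an inhibitory receptor of myeloid cells (0.75, 0.06 to 1.44), Me1 (0.75, 0.01 to 1.49), Frzb (-0.69, -1.28 to -0.09) and Rrm2 (0.69, -0.02 to 1.39), each with adjusted p = 0.999.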

How the data were processed

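The authors deposited log2 values of 36685 features on 20 arrays, made with RMA, per the submitters' processing notes; no version or build is given in the sources used here. All 20 columns were mapped to samples and no pair was identical. Gene names came from GEO's annotation of the array: 14824 probe sets named 1 gene, 829 several and 21032 none. For 234 genes the brightest of several probe sets was kept. No filter, offset or further normalization was applied.

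Differences are resveratrol minus lean control, fitted with limma 3.58.1 (R 4.3.3) to the 20 arrays, a mean for each of 4 groups, with moderated variances and p-values adjusted by Benjamini-Hochberg over 14557 genes, at adjusted p 0.05 (two-sided). Adjusted p-values come from this model; errors are SE of differences (n = 5 each) and SD of group means. Precision is limited by the number of arrays, and the median SE was 0.173. Background was 3.105 log2 units, from 1279 receptor genes. The scripts were tested on simulated data.

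The named genes were the 10 highest and 10 lowest called, the 5 smallest adjusted p-values in each direction, up to 4 called per gene list, likewise those called only without lean control replicate 3, and a set of hormone, macrophage and resveratrol-related genes, with the 5 largest differences between resveratrol and obese rats. Of the genes called only without that replicate, part are given. The comparison, lists and rule were chosen with earlier results of these data known. Replicate numbers did not pair the samples. Promoters came from RefSeq (GRCr8). Plots were drawn with matplotlib 3.10.9.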

Additional observations from a re-analysis of the deposited data

Results flagged for a closer look

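In each group of 5 arrays, the gap between the extreme array and its nearest neighbour was divided by the group's range, for 95 named genes, the signal SD and 6 cell type lists in resveratrol, obese and lean control arrays. Of 306 groups of values, 27 passed Dixon's critical value of 0.71. Chance flags about 1 in 20 independent groups, but these genes share arrays and some were named because they passed without lean control replicate 3, so the count is a description. In lean control all 17 of them were replicate 3. Its value stood above the other lean arrays in Olr1 (ratio 0.875), Cd4 (0.84), Prnp (0.826), C1qb (0.817), Msr1 (0.816), Cryab (0.813), Cd68 (0.794) and Plet1 (0.79). The same replicate was high in Sfrp1 (0.784), Dcn (0.778), Lipa (0.77), Cpt1b (0.764), Ccl9 (0.757), Dmrt2 (0.716) and Lep (0.716), and low in Acvr1c (0.838) and Zim1 (0.751).

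Among resveratrol arrays 5 groups of values passed. Replicate 1 was high in Mt2A (0.78) and Cp (0.722) and low in Loxl1 (0.711), replicate 3 was high in Lox (0.74), and replicate 4 was low in Col1a1 (0.936). The 5 in obese arrays were high values of Lep (0.757) and Dld (0.752) in replicate 5, of Adipoq (0.748) in replicate 4 and of Gpnmb (0.756) in replicate 3, and a low value of Angpt4 (0.77) in replicate 4.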

How the results depend on the processing

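None of the 72 called genes named in the text changed direction under any alternative run. The 383 genes called became 74 with only the 10 compared arrays in the fit, 11 with the signal SD of each array as a covariate, 970 with array weights, 198 with array weights per group, 141 at a difference of at least 2-fold and 60 at adjusted p under 0.01. Leaving out each array in turn gave 102 to 2073 genes; 2073 came without lean control replicate 3, while the others gave 135, 113, 102 and 193 without lean control replicates 1, 2, 4 and 5, and 259, 133, 178, 248 and 169 without resveratrol replicates 1 to 5. Quantile normalization gave 373 (240 higher and 133 lower), median subtraction 516, dim genes removed 558, probe set means 391, and trend and robust moderation 356.

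The 2073 genes called without lean control replicate 3 became 1278 with quantile normalization (726 higher and 552 lower, 56.8% higher) and 135 with the signal SD as a covariate, and 1294 to 2710 when 1 more array was left out, with 1294, 1333 and 1344 without lean control replicates 4 and 2 and resveratrol replicate 2. The cause of these shifts was not tested, except that fewer arrays enter the fits that leave some out.

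Replicate numbers do not pair the samples: same-numbered resveratrol and lean control arrays correlated at -0.28 to 0.17 in their deviations. With the replicate block, 485 genes were called, and 1773 without lean control replicate 3. Of 72 named genes past the threshold, 61 missed it with the signal SD as a covariate, 9 with quantile normalization and 0 with the replicate block or without lean control replicate 3. Near background, folds are approximate.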

Other observations

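Apart from the fit with the signal SD as a covariate and the one restricted to brighter genes, 55 genes passed the threshold between resveratrol and lean control under every alternative. Some not described above are given here as examples, chosen after their values were seen, and whole tissue does not assign them to a cell type. Itgb2, the shared chain of the leukocyte integrins, was 1.97 higher on the log2 scale in resveratrol than in lean control arrays (adjusted p = 0.0089 by limma). Cd5l, a secreted protein of tissue macrophages, was 2.04 higher (adjusted p = 0.00419), and Lgmn, the lysosomal protease legumain, 1.67 higher (adjusted p = 0.00872). Atp6ap2, an accessory subunit of the proton pump that acidifies lysosomes, was 1.30 higher (adjusted p = 0.00482). Hgf, the hepatocyte growth factor, was 1.17 higher (adjusted p = 0.00527), and Hpgd, the enzyme that inactivates prostaglandins, 1.37 higher (adjusted p = 0.00873). Among lower genes of the 55, Scn7a, a sodium channel gene, differed by -0.96 (adjusted p = 0.0119). Or2t6, an olfactory receptor gene of the class used to set background, is also among the 55 (-0.93, adjusted p = 0.00527). A place among them therefore does not by itself show expression in fat.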
